A study of Bos taurus with 38 samples.

Results

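Transcripts of 4 cytoskeleton genes were followed across cattle cumulus-oocyte complexes: TMSB10 (ENSBTAG00000005654), VCL (ENSBTAG00000021879), MID1 (ENSBTAG00000010152) and BICD1 (ENSBTAG00000006734). They were 4 of the 27607 genes in the count tables, and all 4 passed the expression filter in oocytes and in cumulus cells, CPM (read counts scaled to a common library total) above 2 in at least 9 libraries. TMSB10 and MID1 were chosen because their transcript abundance differed between groups of cumulus cells, and VCL and BICD1 because their abundance in the oocyte was correlated with that of genes in the surrounding cumulus cells. Those values are therefore given below as a description, with no test.

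Complexes were aspirated from ovaries of slaughtered cattle and incubated with brilliant cresyl blue (BCB), a dye that growing oocytes reduce to a colourless form. Oocytes that stayed blue were BCB positive, and oocytes that lost the colour were BCB negative. Each immature oocyte was then separated from its own cumulus cells, and cDNA amplified from each of them was sequenced, for 9 BCB positive and 10 BCB negative complexes, 38 libraries in all. Several complexes may have come from the same animal, so that p-values measure the spread between these complexes.

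Thymosin beta 10, the product of TMSB10, binds actin monomers and keeps them out of filaments. Vinculin, the product of VCL, ties integrin and cadherin adhesions to actin filaments. MID1 encodes midline 1, a microtubule-associated ubiquitin ligase that acts on the catalytic subunit of protein phosphatase 2A, and BICD1 encodes an adaptor that couples cargo to the minus-end directed motor dynein. In a cumulus-oocyte complex, actin and microtubules fill the transzonal projections, the thin extensions by which cumulus cells reach through the zona pellucida to the oocyte membrane.

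Library totals ranged from 8886070 to 29810354 in oocytes. In cumulus cells the median total was 5853820 for BCB positive and 2252270 for BCB negative complexes, with a lowest total of 1103200 and a highest of 10430148. Transcripts of 13 genes of the mitochondrial genome took 0.966% to 2.86% of the counts in BCB positive cumulus libraries and 1.17% to 17.4% in BCB negative ones. Levels are given as CPM scaled with the trimmed mean of M values (TMM), which sets the typical gene equal between libraries. Without TMM the median log2 fold change of all genes between BCB groups of cumulus cells moved from -0.01 to 0.46, and in the comparison of compartments from 0.15 to 0.56. The complexes were numbered in runs of 6 to 24, 65 to 74 and 86 to 91, and the last run held 6 BCB negative and 0 BCB positive complexes, so that there run and BCB class cannot be told apart. Fewer cells and less RNA per cell cannot be told apart in the cumulus libraries, while each oocyte library came from a single oocyte.

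Between BCB classes of cumulus cells, TMSB10 and MID1 were more abundant around BCB negative oocytes, which is how they were chosen. TMSB10 had a lowest level of 228, a median of 279 and a highest of 416 TMM-scaled CPM in the 9 BCB positive cumulus libraries. In the 10 BCB negative libraries the lowest was 393, the median 509 and the highest 692. The classes were almost apart: 8 of 9 BCB positive libraries lay below every BCB negative library, and 7 of 10 BCB negative libraries lay above every BCB positive one. The means were 289 ± 64.9 (SD, n = 9) and 531 ± 119 (SD, n = 10) TMM-scaled CPM, a log2 fold change, positive over negative, of -0.88 ± 0.15 (SE). With library totals in place of TMM the log2 fold change was -0.41. It was -0.73 with the run and -0.91 with log10 library total as a covariate. Judged from the oocyte genes ZP2 and ZP3, RNA carried over from the oocyte would amount to at most 1.57% of TMSB10 in cumulus cells.

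**Figure D1:**
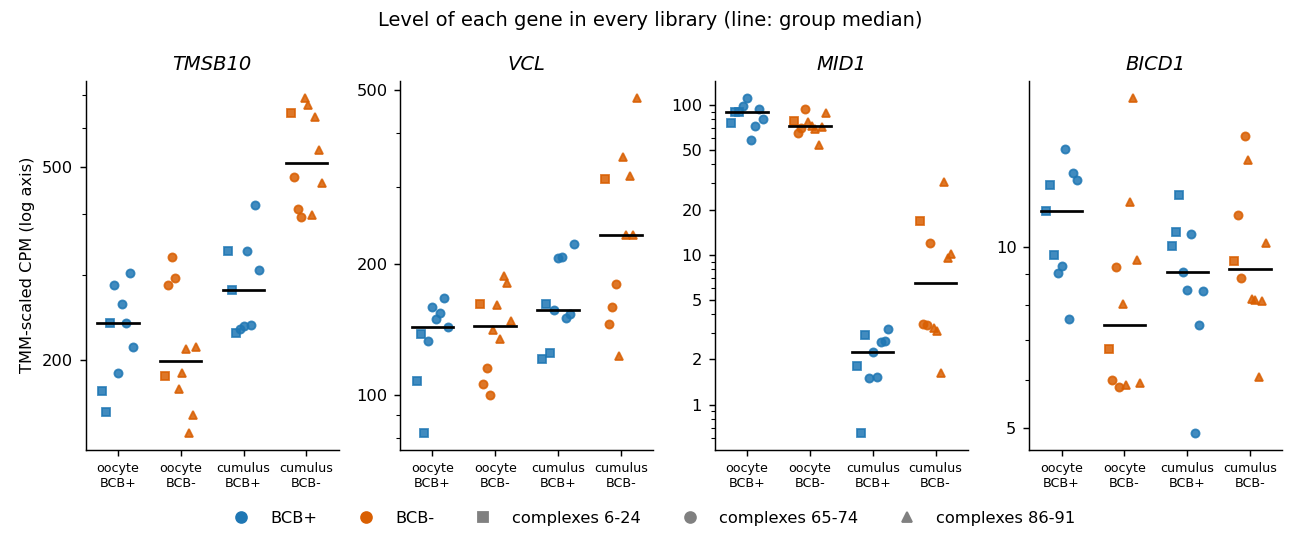
TMM-scaled CPM (log axis) of TMSB10, VCL, MID1 and BICD1 in each oocyte and cumulus library, with a point for each library, coloured by BCB class and shaped by run of complex numbers, and a line at each group median. In cumulus cells the medians of the BCB positive and BCB negative libraries were 279 and 509 for TMSB10 and 2.24 and 6.46 for MID1, and in oocytes the classes overlapped for all 4 genes.

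MID1 was scarce in cumulus cells and uneven among the BCB negative ones. Its lowest, median and highest levels were 0.649, 2.24 and 3.19 TMM-scaled CPM in BCB positive libraries, from 3 to 29 reads, and 1.63, 6.46 and 30.4 in BCB negative libraries, from 4 to 280 reads. Complex 89 held the highest level, complex 6 had 16.8, complex 68 had 11.9, complex 91 had 10.2 and complex 90 had 9.44, while the other 5 BCB negative complexes lay between 1.63 and 3.47. In all, 8 of 10 BCB negative libraries exceeded the highest BCB positive one. Complexes 89 and 6 also had the lowest summed cumulus markers of the cumulus libraries, 7629 and 7702 TMM-scaled CPM, where the other 17 ran from 11710 to 28839, and the part of this in the MID1 or TMSB10 levels was not tested. The means were 2.12 ± 0.816 (SD, n = 9) and 9.35 ± 8.88 (SD, n = 10) TMM-scaled CPM, a log2 fold change of -2.15 ± 0.46 (SE), and of -1.63 without complex 89. It was -1.75 with library totals, -1.97 with the run and -2.51 with log10 library total as a covariate. Oocyte RNA bears on this gene most, because MID1 was far more abundant in oocytes. The summed level of the 3 oocyte markers with an identifier ran from 0.0908 to 1.65 TMM-scaled CPM in BCB positive cumulus libraries and from 0.611 to 93.3 in BCB negative ones, and ZP2 was at 0 in 5 of 9 and 2 of 10 of them. Scaled by ZP2 and ZP3 alone, carried-over oocyte RNA would amount to 31.7% of the MID1 level in cumulus cells of complex 66. It would be 16.6% in complex 68 and 0.0213% in complex 89, with a median of 0.468% over 19 complexes.

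VCL and BICD1 were not chosen on the BCB comparison, and neither passed the test in cumulus cells. Of the 12313 genes tested in cumulus cells, 69 (0.56%) passed a false discovery rate (FDR) of 0.01 in edgeR's quasi-likelihood test, 64 of them lower in BCB positive complexes. VCL ran from 121 through a median of 156 to 222 TMM-scaled CPM in BCB positive libraries. It ran from 123 through 233 to 480 in BCB negative libraries, 6 of 10 of which lay above every BCB positive one. The log2 fold change of VCL was -0.60 ± 0.22 (SE), with an adjusted p of 0.132 in edgeR's test and of 0.0674 in DESeq2. It was -0.26 with the run and -0.90 with log10 library total as a covariate, and -0.12 with library totals. BICD1 ran from 4.90 through 9.08 to 12.2 TMM-scaled CPM in BCB positive and from 6.07 through 9.18 to 15.3 in BCB negative cumulus libraries, and the classes overlapped over most of their range. Its log2 fold change was -0.08 ± 0.20 (SE; edgeR adjusted p = 0.867), and 0.43 with library totals.

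**Figure D2:**
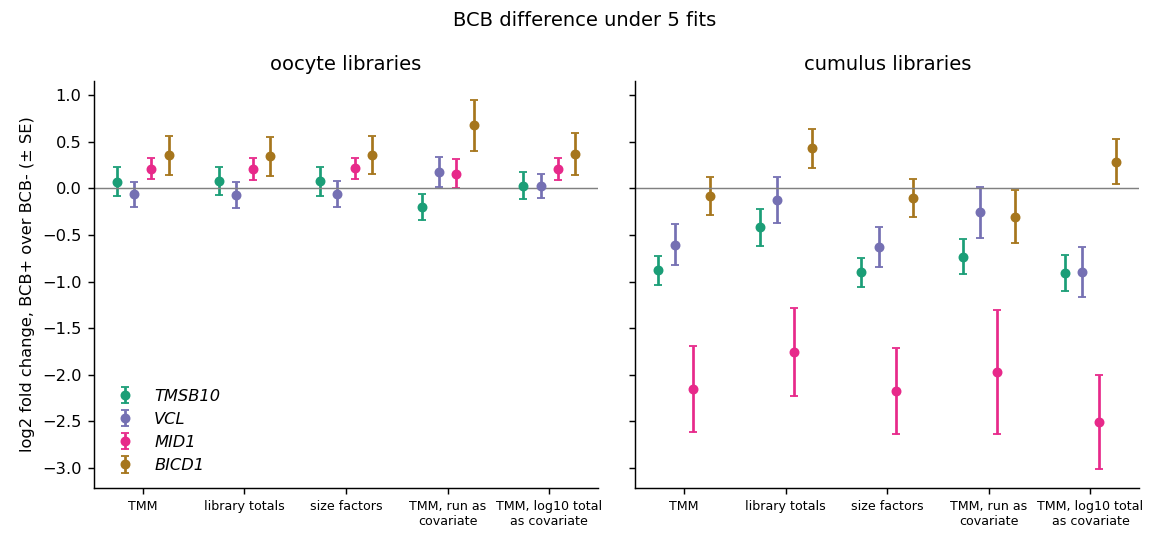
Log2 fold changes (y axis, with bars of ± 1 SE), BCB positive over BCB negative, of the 4 genes in oocyte and cumulus libraries, from edgeR fits with 5 choices of scaling or covariate along the x axis. TMSB10 and MID1 lie below 0 in cumulus cells in all 5 fits, from -0.91 to -0.41 and from -2.51 to -1.75, and BICD1 there lies on either side of 0, from -0.30 to 0.43.

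Other genes of the same machinery were read from 4 lists, with 29 reported genes for adhesion plaque and 30 for each of the others, actin turnover, adhesion plaque, dynein and cargo, and microtubules with MID1 partners. An identifier was at hand for 10, 14, 13 and 10 of them, mostly from copies of the supplementary tables cut in part to the genes with the lowest p-values, so that the counts do not stand for whole pathways. Of the 46 reported list genes tested in cumulus cells, 0 passed an FDR of 0.01 in either direction in edgeR's test, 10 had an unadjusted p below 0.05, and DESeq2 called 1, TMSB4X, beside 2299 and 365 of all 12313 genes. The median log2 fold changes of the lists were -0.04, 0.07, 0.04 and 0.09 in the order above, beside -0.01 for all genes. TMSB4X, the closest relative of TMSB10 in the lists, had means of 316 ± 65.3 (SD, n = 9) and 643 ± 326 (SD, n = 10) TMM-scaled CPM and did not pass, with a log2 fold change of -1.02 ± 0.23 (SE; edgeR adjusted p = 0.0171), or of -0.57 with library totals. Reads of TMSB4X may be divided with a near copy listed as TMSB4. ACTB, which encodes beta-actin, had a log2 fold change of -0.02 (adjusted p = 0.954). The most abundant genes of the other lists had log2 fold changes of 0.24 for CTNNB1, which encodes beta-catenin, -0.16 for ITGB1, the beta 1 integrin chain, -0.13 for DYNC1H1, the dynein heavy chain, -0.18 for KIF5B, a kinesin heavy chain, and, among tubulin genes, 0.05 for TUBB and 0.36 for TUBA1B, and none of them passed.

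In oocytes the BCB classes overlapped for each of the 4 genes. TMSB10 and MID1 did not pass the test, and VCL and BICD1 are given with no test, because they were chosen on oocyte values related to cumulus counts not scaled to the library total, and median cumulus totals were unlike between the classes. At an FDR of 0.01, 0 of 12753 genes (0%) were called in oocytes, 711 had an unadjusted p below 0.05 and DESeq2 called 1 gene, and TMSB10 and MID1 were not among them. TMSB10 ran from 157 through a median of 239 to 302 TMM-scaled CPM in BCB positive and from 142 through 200 to 326 in BCB negative oocytes, with a log2 fold change of 0.07 ± 0.16 (SE). VCL ran from 82.1 through 144 to 167 in BCB positive and from 100 through 144 to 187 in BCB negative oocytes, with a log2 fold change of -0.06 ± 0.13 (SE). For both genes the classes overlapped over most of their range, and for VCL 2 of 10 BCB negative oocytes lay above every BCB positive one. MID1 ran from 57.9 through 88.8 to 111 in BCB positive and from 53.7 through 71.7 to 94.3 in BCB negative oocytes, a log2 fold change of 0.21 ± 0.12 (SE). BICD1 ran from 7.58 through 11.5 to 14.5 in BCB positive and from 5.84 through 7.40 to 17.7 in BCB negative oocytes, a log2 fold change of 0.36 ± 0.21 (SE). The edgeR adjusted p was 0.970 for TMSB10 and 0.888 for MID1. Only 2 of 10 BCB negative oocytes exceeded the BCB positive median of BICD1 and 1 of 10 that of MID1, and the highest BICD1 level of all oocytes was in the BCB negative complex 89. With the run as a covariate, the log2 fold change of BICD1 was 0.68, and those of TMSB10 and VCL turned to -0.20 and 0.17.

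Of the 45 reported list genes tested in oocytes, 0 passed, 3 had an unadjusted p below 0.05 and DESeq2 called 0. TMSB4X differed by a log2 fold change of 0.07 and DSTN, which encodes the filament-severing destrin, by -0.17, and with the run as a covariate by -0.39 and -0.30. ITGB1 was at -0.00, CTNNA1, which encodes alpha-catenin, at -0.05, RAB6A, a Golgi GTPase that recruits BICD adaptors, at 0.10, and KIF5B at -0.20. TUBA1B was at 0.01 and PPP2CA, the phosphatase subunit on which MID1 acts, at -0.02.

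Because runs and BCB classes were not balanced, the classes were also compared inside the run of complexes 65 to 74, with 6 BCB positive and 3 BCB negative complexes. An exact two-sided permutation test of the difference in mean log2(CPM + 1) over the 84 splits cannot give a p below 0.0119, and p-values are not adjusted. VCL and BICD1 in oocytes are given with no test, because they were chosen on relations with cumulus counts not scaled to the library total, and cumulus totals in this run were apart between the classes. VCL in oocytes was apart, at 136 to 165 CPM in BCB positive against 96.8 to 111 CPM in BCB negative oocytes, a log2 difference of 0.55 and of 0.49 with TMM factors. Classes that did not overlap in this direction were found for 7.20% of the 12753 genes with library totals and for 4.87% with TMM factors. BICD1 in oocytes was also higher in BCB positive oocytes of this run, at 7.79 to 14.5 against 5.64 to 8.90 CPM. Its log2 difference was 0.64, or 0.58 with TMM factors, and these ranges overlapped. TMSB10 in oocytes differed by -0.24 (exact permutation p = 0.179) and MID1 in oocytes by 0.22 (0.345), and both overlapped.

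In cumulus cells of the same run, the values turned on the scaling. The 3 BCB negative cumulus libraries there had totals of 1103200 to 1650800 against 4386950 to 10430148 in the 6 BCB positive ones. VCL was higher by 0.96 in BCB positive cumulus cells with library totals (exact permutation p = 0.0119), in a background in which 39.7% of 12313 genes lay higher without overlap, and by 0.16 with TMM factors (0.381), where the background was 4.87%. BICD1 differed by 0.24 with library totals (exact permutation p = 0.333) and by -0.49 with TMM factors (0.0833). TMSB10, which has no test here, differed by 0.24 with library totals and by -0.57 with TMM factors, a change of sign, and by -0.00613 with library totals when complex 68 was left out. MID1 differed by -0.34 with library totals, or -0.0101 without complex 68, and by -0.97 with TMM factors, and with these factors the highest BCB positive library, at 3.19 TMM-scaled CPM, lay below the BCB negative ones at 3.41 to 11.9. With TMM factors 4.58% of the genes lay lower in BCB positive libraries without overlap.

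The BCB negative complexes alone were then compared between runs, 86 to 91 over 65 to 74, and here the oocyte levels of TMSB10 and VCL were apart in opposite directions. TMSB10 had 285, 295 and 326 TMM-scaled CPM in the 3 oocytes of the earlier run, and 142, 181 and 213 as the lowest, median and highest of the 6 oocytes of the later run. VCL had 100, 106 and 115 in the earlier run, and 134, 154 and 187 as the lowest, median and highest of the later run. Neither gene overlapped between the runs, as was so for 10.6% of the 12753 genes in the direction of TMSB10 and for 8.45% in that of VCL, and complex 6, the remaining BCB negative oocyte, lay near the later run with 185 for TMSB10 and 162 for VCL. Of the 12753 genes, 261 (2.05%) passed an FDR of 0.01, 57 higher and 204 lower in the later run. TMSB10 was lower by a log2 fold change of -0.74 ± 0.13 (SE; edgeR adjusted p = 0.0082). Of 9 fits that each left out a complex, those without complex 87 or complex 91 kept that call. It was lost without any of complexes 65, 66, 68, 86, 88, 89 and 90, with an adjusted p of at most 0.0334, and with library totals (0.0139), and was made by DESeq2 (2.83e-05). VCL differed by 0.57 ± 0.13 (SE) and BICD1 by 0.48 ± 0.37 (SE), given with no test, since cumulus totals of these complexes were also apart between the runs. MID1 differed by -0.08 ± 0.16 (SE; edgeR adjusted p = 0.766).

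The runs also differed in what surrounds these values. Totals of the BCB negative oocyte libraries were 9389800 to 13424100 in the earlier and 19195100 to 29810354 in the later run. The summed cumulus markers, 11 of 12 with an identifier, were 88.9 to 104 TMM-scaled CPM in the earlier and 99.6 to 822 in the later run, while the sum of ZP2, ZP3 and DAZL was 4275 to 4757 in the earlier and 2749 to 3650 in the later run, lower together with TMSB10. The part of either in the difference was not tested. Scaled by the summed cumulus markers, carried-over cumulus RNA would amount to 0.562% to 14.6% of oocyte TMSB10 and to 0.324% to 10.9% of oocyte VCL over the 19 complexes. In BCB negative oocytes the median was 106 TMM-scaled CPM for this sum and 88.2 for its member SERPINE2. INHA and INHBA had medians of 1.24 and 2.13 there. Their medians in BCB negative cumulus cells were 2906 and 2869, near the 3163 of SERPINE2. At these medians the percentage rests mostly on SERPINE2, and carry-over without SERPINE2 was not computed.

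Among list genes in this oocyte comparison, 0 of 45 rose, 2 fell, 43 did not pass, 20 had an unadjusted p below 0.05 and DESeq2 called 12, beside 3917 and 1453 of all 12753 genes. TMSB4X fell with TMSB10, from 1592 ± 158 (SD, n = 3) to 833 ± 106 (SD, n = 6) TMM-scaled CPM, a log2 fold change of -0.93 ± 0.11 (SE; edgeR adjusted p = 0.0026), a call lost without complex 65, 66 or 68. DSTN fell by 0.39 on the log2 scale (0.0089), and its call was lost in 8 of 9 fits that left out a complex. The adhesion plaque list, to which vinculin belongs, had a median log2 fold change of 0.54, beside 0.03 for all genes, with 0 of 13 genes past the threshold. Its genes went both ways, from ITGAV at 2.13 to ITGB1 at -0.27. TLN1, which encodes the vinculin partner talin, was at 0.54 (edgeR adjusted p = 0.0205). In cumulus cells 0 of 12313 genes (0%) passed between runs, 903 had an unadjusted p below 0.05 and DESeq2 called 4. VCL was the only member among the 903, with 146, 159 and 180 TMM-scaled CPM in the earlier run against 123, 275 and 480 as the lowest, median and highest of the later run. Its log2 fold change in cumulus cells was 0.86 ± 0.34 (SE; edgeR adjusted p = 0.625). The values in the same fit were 0.43 ± 0.23 (SE) for TMSB10, -0.34 ± 0.41 (SE) for BICD1 and 0.87 ± 0.96 (SE) for MID1, the last at -0.06 without complex 89. In this comparison 0 of 46 list genes passed, 2 had an unadjusted p below 0.05 and DESeq2 called 0.

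**Figure D3:**
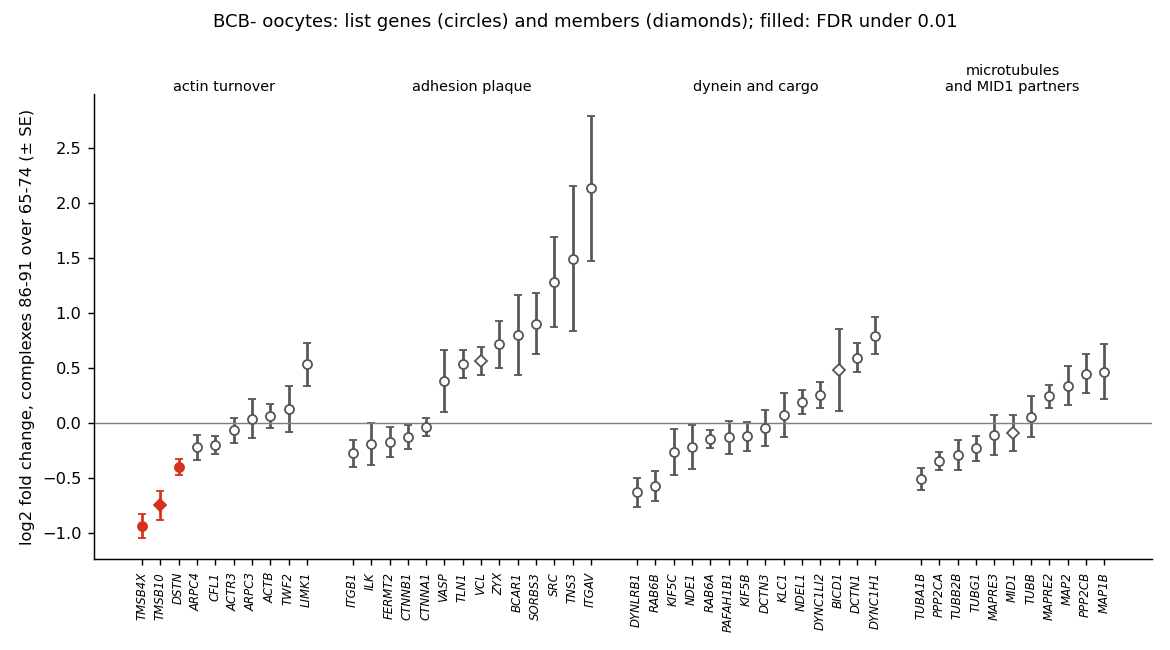
Log2 fold change (y axis, with bars of ± 1 SE), complexes 86 to 91 over 65 to 74, in BCB negative oocytes, for the reported genes of the 4 lists (circles) and for TMSB10, VCL, MID1 and BICD1 (diamonds), each placed in its list along the x axis and filled where the FDR is under 0.01. The filled points are TMSB4X at -0.93, TMSB10 at -0.74 and DSTN at -0.39. VCL, at 0.57, and BICD1 are given with no test, so that the filling of their diamonds is not to be read as a result.

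Between compartments, with TMM over all 38 libraries, MID1 was higher in the oocyte and TMSB10 and VCL in the cumulus cells, in 19 of 19 complexes. With library totals, TMSB10 was higher in the oocyte of complex 68, at 285 against 210 CPM. VCL with library totals was higher in the oocyte of complex 86, at 144 against 97.9 CPM, and of complex 68, at 96.8 against 96.1 CPM. The edgeR test over 38 libraries called 13128 of 14785 genes (88.8%), 6872 higher and 6256 lower in oocytes, so that a difference here is the usual case. MID1 was higher in the oocyte in 19 of 19 complexes, by a ratio with a median of 18.3 and a range of 1.36 to 92.7. The median ratio of MID1 was 27.1 in BCB positive and 9.76 in BCB negative complexes. Its log2 fold change, oocyte over cumulus, was 3.66 ± 0.24 (SE; adjusted p = 9.1e-18). TMSB10 was higher in the cumulus cells in 19 of 19 complexes, with a median ratio of cumulus to oocyte of 2.38 and a log2 fold change of -1.27 ± 0.11 (SE; adjusted p = 9.2e-14). VCL was also higher in the cumulus cells in 19 of 19 complexes, with a median ratio of 1.96 and a log2 fold change of -0.99 ± 0.14 (SE; adjusted p = 1.25e-08). BICD1 was higher in the cumulus cells in 14 of 19 complexes. It did not pass, with a log2 fold change of -0.36 ± 0.15 (SE; adjusted p = 0.0212), and was at 0.06 with library totals. Pairing each oocyte with its own cumulus cells as a block changed no call among the 4.

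**Figure D4:**
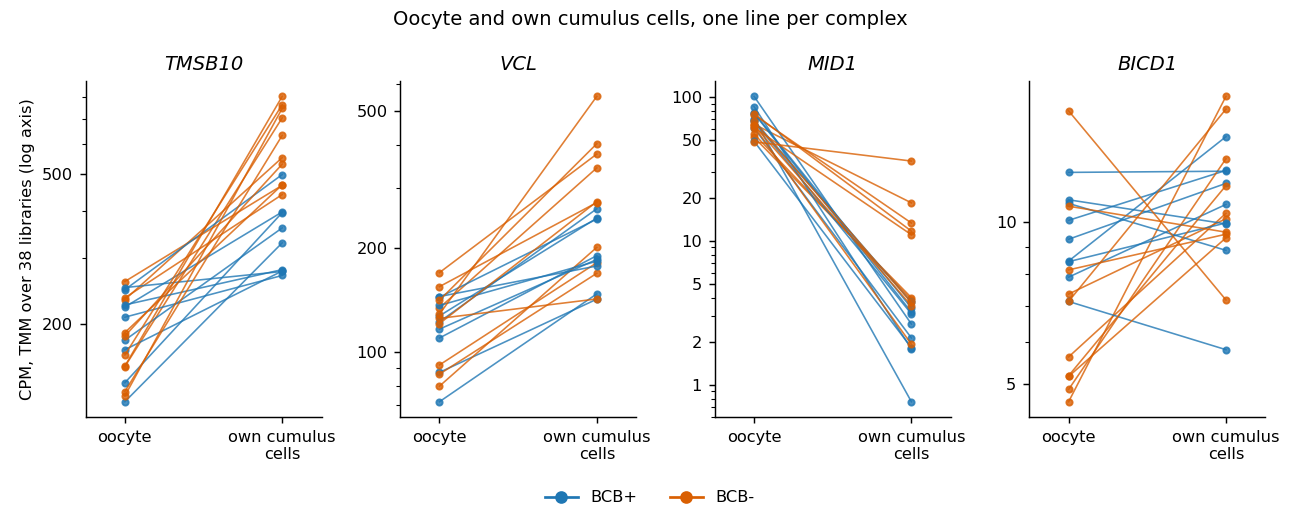
CPM scaled with TMM over all 38 libraries (log axis) of each gene in the oocyte and in its own cumulus cells, joined by a line for each complex and coloured by BCB class. TMSB10 and VCL are higher in cumulus cells and MID1 is higher in oocytes in 19 of 19 complexes, while BICD1 is higher in cumulus cells in 14 of 19.

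Of the list genes in the same comparison, 16 of 47 were higher and 25 lower in oocytes, and differences between lists were not tested. Of the actin turnover genes 3 were higher and 7 lower, of the adhesion plaque genes 3 and 10, of the dynein and cargo genes 4 and 7, and of the microtubule genes with MID1 partners 6 and 1. The median log2 fold change was -1.19 for actin turnover, -1.73 for adhesion plaque, -0.62 for dynein and cargo and 0.59 for microtubules with MID1 partners, beside 0.15 for all genes. Of the thymosin genes, TMSB4X lay opposite to TMSB10, higher in oocytes by 0.86 ± 0.14 (SE; edgeR adjusted p = 4.73e-07).

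Whether the BCB difference itself differed between compartments was tested as an interaction, positive where the log2 fold change, BCB positive over negative, was larger in oocytes. Of 14785 genes 251 (1.70%) passed, 244 of them with a positive value. VCL had an interaction of 0.50 ± 0.27 (SE) and BICD1 of 0.38 ± 0.30 (SE), with no test for the reason given for oocytes. For TMSB10 the value was 0.94 ± 0.22 (SE) and for MID1 2.38 ± 0.45 (SE), given as a description because the cumulus comparison chose these genes. With each oocyte paired with its own cumulus cells as a block, 2 of the 14785 genes passed, and the values were 0.94 for TMSB10, 1.95 for MID1, 0.41 for VCL and 0.49 for BICD1. Of the 47 reported list genes 0 passed without the block, 6 had an unadjusted p below 0.05, and DESeq2 called 1, TMSB4X, beside 2504 and 744 of all 14785 genes.

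Each gene was finally related to itself across the 19 complexes, its log2(CPM + 1) in the oocyte against that in the cumulus cells of the same complex. VCL, chosen for relations over these same pairs, had Pearson's r = 0.68 and Spearman's rho = 0.64, and r = 0.66 without the 2 complexes farthest from the median. Its r was 0.58 over BCB positive, 0.78 over BCB negative complexes and 0.81 within complexes 65 to 74. With TMM factors r was 0.57 over all complexes and 0.26 within complexes 65 to 74. BICD1, chosen in the same way, had r = 0.36 and rho = 0.41, but r = -0.33 with TMM factors. TMSB10 had r = -0.54 (permutation p = 0.0166) and rho = -0.48 (0.0382), and r = -0.46 without the 2 farthest complexes. This rested on the BCB negative complexes, with r = -0.84, where the 3 of the earlier run stood apart, and r was -0.82 over the 6 of the later run (exact permutation p = 0.050), or -0.60 with TMM factors (0.215). Over BCB positive complexes the r of TMSB10 was 0.11, within complexes 65 to 74 it was 0.07, or 0.65 with TMM factors, and with TMM factors over all complexes it was -0.32 (permutation p = 0.173). MID1 had r = -0.27 (permutation p = 0.258) and rho = 0.00175 (0.997). In all, 4 such relations were computed and the p-values are not adjusted. The points of a pair share a complex and a run, and library totals of oocyte and cumulus cells were correlated with r = 0.38 over all complexes, 0.67 over BCB positive and 0.77 over BCB negative ones.

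The pairs behind the choice of BICD1 and VCL were taken on counts divided by the TMM factor alone, without the library total, and transformed with the inverse hyperbolic sine. On that scale BICD1 in oocytes had r = 0.91 with TMSB4X, 0.88 with TMSB10 and 0.85 with MAP2, which encodes a microtubule-associated protein, all in cumulus cells. On log2 of TMM-scaled CPM plus 1, which includes the library total, the same pairs had r = -0.09, -0.21 and 0.17. VCL in oocytes had r = 0.88 with MAP3K8, a kinase of the MAPK cascade, in cumulus cells on the first scale and 0.59 on the second, where r was 0.93 over BCB positive complexes, 0.70 over BCB negative ones and -0.33 within complexes 65 to 74. Over BCB positive complexes the r of BICD1 on the second scale was 0.81 with TMSB10, 0.47 with TMSB4X and 0.55 with MAP2, and over BCB negative ones it was 0.08, 0.30 and 0.50. So the r of each pair depended on the scale and on the complexes taken.

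Within a compartment, the genes with a symbol were ranked by Pearson's r of log2(TMM-scaled CPM + 1) with each member over 19 libraries. The closest are given as a description. A symbol was at hand for 4594 of 12752 genes in oocytes and for 4490 of 12312 in cumulus cells. Genes without a symbol could rank higher, as 17 did above MCCC1 for BICD1 in cumulus cells. In oocytes TMSB10 was closest to TXNL4A (0.87), PSENEN (0.86) and UBE2V2 (0.85), and VCL to SCAF8 (0.95), ZNF395 (0.91) and RNF111 (0.91). MID1 in oocytes was closest to GMPR2 (0.73), ABHD12 (0.73) and DEXI (0.72), and BICD1 to ZNF598 (0.77), CRMP1 (0.74) and SLC35F1 (0.69). The oocyte neighbours of TMSB10 and VCL had an r of at least 0.736 in both BCB classes. In cumulus cells TMSB10 was closest to RPS23 (0.85), KRT18 (0.85) and BMPR1B (0.84), and VCL to DEPP1 (0.81), UTP6 (0.79) and MAP3K8 (0.79). MID1 in cumulus cells was closest to IGFBP2 (0.83), BAMBI (0.83) and ANO3 (0.79), yet its r with BAMBI was -0.07 over BCB positive and 0.82 over BCB negative complexes. BICD1 in cumulus cells was closest to GSTM1 (0.77), APBB3 (0.76) and MCCC1 (0.69). The members were less like each other. In cumulus cells TMSB10 had r = 0.60 with MID1 and 0.46 with VCL, and MID1 had 0.56 with VCL, but over BCB positive complexes these values were 0.01, 0.07 and 0.03. In oocytes TMSB10 and VCL had r = -0.46, which was 0.18 over BCB positive and -0.93 over BCB negative complexes, the class in which the runs were apart for both genes.

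**Figure D5:**
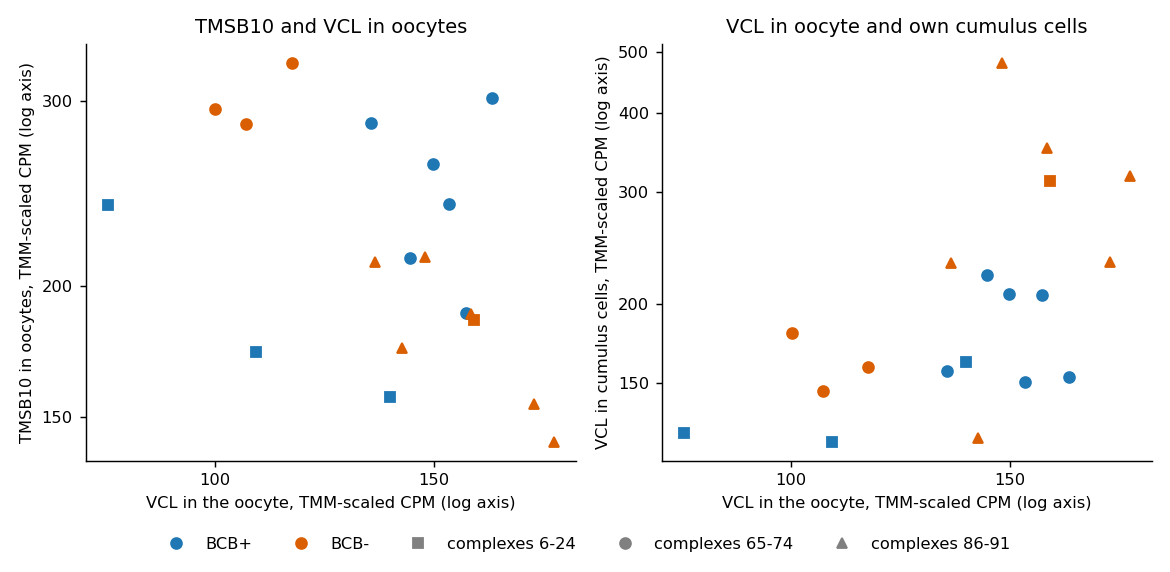
TMM-scaled CPM (log axes) of VCL in the oocyte (x axes) against TMSB10 in the same oocyte on the left and against VCL in the complex's own cumulus cells on the right, with a point for each of 19 complexes, coloured by BCB class and shaped by run. On the left r is -0.46 over all complexes and -0.93 over BCB negative ones, where the runs lie apart, and on the right r is 0.57.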

How the data were processed

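RNA of 19 single oocytes and of their cumulus cells was sequenced after cDNA amplification. The authors trimmed the reads, aligned them to ARS-UCD1.2 with HISAT2 2.1.0, filtered with Samtools and sorted with Picard. Genes of the Ensembl annotation were counted with featureCounts 1.6.0 and duplicates were left out, per the labels and methods. The deposited values are raw counts per gene, whole numbers without normalization.

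Groups and complex numbers came from the labels. The expression filter, more than 2 CPM in 9 or more of 19 libraries, left 12753 in oocytes and 12313 in cumulus cells, and 14785 in either for tests over both compartments. Tests used edgeR 4.0.16 in R 4.3.3 (TMM, robust quasi-likelihood, FDR 0.01, Benjamini-Hochberg over all genes kept), with the standard error derived from the F statistic. They were tested on simulated data. DESeq2 1.42.0 gave alternatives. Relations used log2(CPM + 1) with 100000 permutations, or all below 10 complexes, in Python 3.11.15 with scipy 1.17.1. Gene lengths were not used, so that levels were compared between genes only to pick the most abundant of a list, by scaled CPM. Symbols came from the supplementary tables, 4934 identifiers, and no sequence is given. Totals of 1103200 to 29810354 reads set the precision, which is lowest for MID1 and BICD1 in cumulus cells. No library was a copy of another, with correlations of at most 0.985 in oocytes and 0.967 in cumulus cells.

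The members, the lists and the runs were chosen with earlier results of these data known. Named beside the members are list genes that passed in a BCB comparison, the 2 most abundant of a list where none passed, the 3 genes most like each member, and the study's partners of BICD1 and VCL. Of the genes these rules and the lists cover, 1 is not reported here and is left out of the list counts. DSTN and TLN1 in the run comparison were named after their values were seen. An oocyte and a cumulus library with the same number come from the same complex. Correlations of their deviations from group means over 10281 genes had a median of 0.0761, from -0.0189 to 0.215, against -0.000396 for other pairs, and 6 of 19 oocytes matched best with their own cumulus cells.

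Alternatives were an FDR of 0.05, library totals, DESeq2 with its size factors, other filters, the joint rule of the paper (calls shared by DESeq2 and a likelihood-ratio test in edgeR without TMM), run or log10 total as a covariate, a block by complex, other scales, and leaving out each library. Leaving out libraries in the BCB comparisons was added after seeing the data.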

Additional observations from a re-analysis of the deposited data

Results flagged for a closer look

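In 16 groups of libraries, 4 genes in 2 compartments and 2 BCB classes, 2 held a library far from the others, where chance flags about 1 in 20 groups. Both were complex 89, BCB negative. Its cumulus cells had 30.4 TMM-scaled CPM of MID1, with the next highest at 16.8, and its oocyte had 17.7 of BICD1, where the class median was 7.40. Without complex 89 the log2 fold change of BICD1 between BCB classes of oocytes was 0.54 instead of 0.36.

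The BCB difference was unlike between compartments for TMSB10 and MID1 in the interaction term of edgeR's fit over 38 libraries. The value was 0.94 for TMSB10 and 2.38 for MID1 on the log2 scale, more negative in cumulus cells than in oocytes. Both genes were chosen on the cumulus comparison, so that these values are a description. With library totals they were 0.49 and 2.02. With each oocyte paired with its own cumulus cells as a block they were 0.94 and 1.95. The flag came from the fit without this pairing, and far fewer genes passed with it.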

How the results depend on the processing

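Of the other settings, leave-one-out fits apart, 163 values or counts were held as unchanged and 54 as changed. An unchanged value kept its direction and its side of the threshold. A count of genes called was held as unchanged where it moved little, as from 69 to 46 in cumulus cells with a CPM above 2 in all libraries. In oocytes DESeq2 called 1 gene between BCB classes, the run as a covariate turned TMSB10 to -0.20 and VCL to 0.17, the log10 total turned VCL to 0.0271, and leaving out libraries kept the count at 0 and moved VCL from -0.11 to 0.00576 (without complex 24). In cumulus cells the 69 genes called became 360 at an FDR of 0.05, 1704 with library totals (1601 higher, 103 lower), 365 with DESeq2, 164 without a filter, 216 under the joint rule of the paper, 115 with the run and 2 with log10 total as a covariate, and 6 (without complex 24) to 160 (without complex 89) with a library left out. BICD1 there turned to 0.43 with library totals and under that rule, 0.0282 without a filter and 0.29 with log10 total, and moved from -0.15 to 0.00167 (without complex 72). A CPM above 2 in all libraries left 6735 calls between compartments and left out MID1, and library totals turned BICD1 to 0.0560.

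The 251 interaction calls became 678 at an FDR of 0.05, 642 with library totals (220 positive, 422 negative), 744 with DESeq2 and 30 with the filter on all libraries, and BICD1 turned to -0.0859 with library totals. The replicate block by complex, a pairing given by the labels, left 2 interaction calls and 13058 between compartments, and changed no call of VCL or BICD1 between compartments. In the interaction TMSB10 and MID1, given as a description, were at 0.94 and 1.95 with the block. Between runs of BCB negative oocytes the 261 calls became 1602 at an FDR of 0.05, 127 with library totals, 1453 with DESeq2 and 0 to 418 with a complex left out, where MID1 moved from -0.19 to 0.0909 (without complex 68). In cumulus cells DESeq2 called 4, library totals turned BICD1 to 0.0419, and MID1 moved from -0.0568 (without complex 89) to 1.54 with a complex left out.

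Within complexes 65 to 74, TMM factors gave -0.57 for TMSB10, 0.16 for VCL, -0.97 for MID1 and -0.49 for BICD1 in cumulus cells, and BICD1 in oocytes lay between 0.54 and 0.82 with a BCB negative complex left out. The own-gene r of TMSB10 became -0.32 with TMM factors and 0.36 on the inverse hyperbolic sine scale, that of MID1 0.37 on the latter, and that of BICD1 -0.33 and 0.61. The cause of these changes was not tested. Depth limits MID1 in cumulus cells most, with 3 reads in the smallest count.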

Other observations

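Some member levels moved with measures of the library, given as a description over 19 libraries. BICD1 in cumulus cells had r = -0.58 with log10 library total and 0.60 with the mitochondrial share of counts, in TMM-scaled values. TMSB10 in cumulus cells had r = -0.50 with log10 library total and 0.51 with the mitochondrial share, and MID1 in cumulus cells had -0.32 and 0.47, the latter 0.90 within complexes 65 to 74. Medians of both measures were unlike between the BCB classes of cumulus cells, and within BCB negative complexes the r with the mitochondrial share was -0.24 for TMSB10, 0.08 for MID1 and 0.89 for BICD1, whose r with log10 library total was -0.81 there. In oocytes, r with log10 library total was 0.52 for VCL and -0.46 for TMSB10. In all, 24 such relations were computed.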
